A study of Mus musculus with 2 samples.

Results

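The genes described here are 55 homeobox transcription factor genes outside the Hox clusters, together with the PBX and MEIS proteins that bind DNA beside Hox proteins. They were taken by name from a list that was made with earlier results of these data known. Each was read from probe sets that the array annotation assigns to that gene alone, and where a gene had several, the brightest, by mean log2 signal of both arrays, stood for it. All 55 were found among the 18194 genes of the array, through 115 probe sets, and 27 of them had a single probe set.

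RNA came from mouse embryonic fibroblasts (MEFs), cells grown out of embryos, that were either wild-type for Bmi1 or null for it. Bmi1 is a subunit of Polycomb repressive complex 1 (PRC1) and stimulates the addition of ubiquitin to histone H2A. Both lines were derived from littermates, carry the labels C57BL/6 and male, received no treatment and had been immortalized with a TBX2 construct, so the control cells express the T-box repressor TBX2 too. The age of the embryos is not given in the sources used here. There was 1 Affymetrix array per genotype, so no value below has a replicate, no test was possible, and the genotype cannot be told apart from the line, the embryo it came from or the array.

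Homeobox genes encode a DNA-binding homeodomain and assign cells to a body region or organ during development. Polycomb complexes are known to keep many of them silent where they are not needed, and fibroblasts are known to retain a homeobox pattern of the region they came from. The TALE class has an insertion of amino acids between the first helices of the homeodomain. Its PBX, MEIS and PREP (Pknox) proteins are partners of Hox proteins, TGIF proteins are repressors, and Iroquois (Irx) proteins pattern heart, nervous system and limb. Paired-like, MSX, DLX, LIM and sine oculis proteins act mostly in limb, skull, branchial arch, kidney or neural precursors. Pax1 and Pax9 were kept on the list although they have a paired domain and are known to lack a homeodomain.

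Promoter sequence was examined because CpG-rich promoters are the usual setting of Polycomb binding. A RefSeq promoter on build GRCm38.p6 was at hand for 40 of the 55 genes. In the 250 bases before the start, these 40 promoters held a median of 17.5 CpG dinucleotides (quartiles 12 and 22), against 6 (quartiles 2 and 17) over 27025 genes with a promoter in the same table. At least 10 CpG were found in 34 of the 40 (85%) and in 40.2% of all genes. The GC box GGGCGG, searched on both strands, lay in 21 of the 40 (52.5%) and in 34.4% of all. The TATA box TATAAA lay in 4 (10%) against 12.5%. TGACAG, the core bound by MEIS, PREP and TGIF proteins, lay in 7 (17.5%) against 15.7%. For a gene with several starts, the window with the most CpG was taken in both sets, and a match describes letters only. The promoters below are those of a gene with lower signal in null cells (Irx3), a gene with higher signal (Six2) and the paralogues Prrx1 and Prrx2, which differed from each other. Each is printed 5′ to 3′ along the gene with CpG in capitals. The Irx3 window has 13 CpG, that of Six2 has 26, that of Prrx1 has 4 and that of Prrx2 has 21. Other genes past 2-fold below have 20 (Msx1), 13 (Six5) and 11 (Shox2) where higher, and 13 (Meis1) where lower. A relation between CpG content and the ratios was not tested.
Irx3, chr8:91801655-91801904, minus strand: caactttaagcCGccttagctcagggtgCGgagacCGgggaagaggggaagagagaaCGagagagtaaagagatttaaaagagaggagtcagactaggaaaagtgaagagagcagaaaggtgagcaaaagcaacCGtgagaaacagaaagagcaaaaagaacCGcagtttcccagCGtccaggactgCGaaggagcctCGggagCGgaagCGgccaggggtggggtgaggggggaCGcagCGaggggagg
Six2, chr17:85688255-85688504, minus strand: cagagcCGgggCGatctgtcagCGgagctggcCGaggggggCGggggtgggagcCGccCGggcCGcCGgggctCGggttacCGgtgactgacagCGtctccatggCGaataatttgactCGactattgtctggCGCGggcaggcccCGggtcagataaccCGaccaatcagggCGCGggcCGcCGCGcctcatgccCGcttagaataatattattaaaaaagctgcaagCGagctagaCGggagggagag
Prrx1, chr1:163313651-163313900, minus strand: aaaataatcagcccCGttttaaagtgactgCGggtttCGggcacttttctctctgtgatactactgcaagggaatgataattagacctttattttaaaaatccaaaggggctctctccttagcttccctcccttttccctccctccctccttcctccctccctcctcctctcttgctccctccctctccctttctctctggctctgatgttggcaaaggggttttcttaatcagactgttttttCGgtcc
Prrx2, chr2:30845117-30845366, plus strand: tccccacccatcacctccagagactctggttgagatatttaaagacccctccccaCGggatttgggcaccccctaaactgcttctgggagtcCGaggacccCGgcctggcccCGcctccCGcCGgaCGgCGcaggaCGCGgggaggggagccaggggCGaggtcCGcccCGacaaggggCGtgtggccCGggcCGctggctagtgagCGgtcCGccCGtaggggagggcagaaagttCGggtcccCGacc

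The arrays and labels were checked before the genes were compared. The targeted gene Bmi1 read 9933 in wild-type against 2146 in null MEFs at its brighter probe set, 4.63-fold lower, and 931 and 831 at the other. The position of these probes with respect to the deletion is not known here. The Y-linked gene Eif2s3y read 1683 in wild-type against 23.3 in null MEFs, which goes against the male label of the null line. Fibroblast markers were present, with 12 of 12 exceeding a signal of 100 (the floor) in at least 1 line and summed signals of 100669 and 117300. Vim read 19519 and 19233 and Pdgfrb 6816 and 6951. Others differed, among them Pdgfra (4952 and 532), Thy1 (375 and 50.7) and Lum (68.0 and 729). Markers of other cell types also moved between the lines. Of the mesothelial list, 5 of 7 were above the floor, and the summed signal was 3540 in wild-type against 11997 in null MEFs. Its genes went both ways, with Gpm6a (4.52 and 8828) and Upk3b (188 and 1693) higher and Msln (3006 and 1031) lower in null cells. Of the neural and glial list, 5 of 7 were above it (sums 2284 and 4714), with Map2 (243 and 2132) higher and Tubb3 (330 and 122) lower in null cells. Of the epithelial list 2 of 8 were above it (sums 512 and 1289), namely Epcam (149 and 834) and Krt5 (149 and 155), while Cdh1, Krt8 and Krt18 were below it on both arrays. Endothelial markers had 3 of 7 above it (sums 442 and 405), blood and macrophage markers 3 of 7 (1560 and 875), skeletal muscle markers 2 of 6 (761 and 563) and pluripotency markers 0 of 5 (117 and 189). The part of these markers in the results below was not tested.

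Of the 55 genes, 32 (58.2%) had a signal above 100 on at least 1 array, compared with 64.7% of all genes. Signals below 100 were set to this floor, which is 0.2 times the trimmed mean of each array, and a gene below it on both arrays was given no ratio. Among the 32, 23 were above the floor on both arrays, 3 in wild-type cells alone and 6 in null cells alone. Where 1 array was below the floor, the fold between the 2 signals as read is larger than the one given, which is marked by the words at least. This is a bound on the signals and not on the transcript levels. Genes above the floor on 1 array alone entered because they were high there, so their counts are given apart. The remaining 23 genes were below 100 on both arrays at every probe set. They are Alx1, Alx4, Gsc, Otx1, Otx2, Pax1, Pax3, Pax6, Msx2, Dlx1, Dlx3, Nkx2-5, Nkx3-2, Barx1, Barx2, Meox1, Meox2, Gbx2, Cdx2, Lhx2, Lhx8, Lmx1b and Isl1. Just inside the floor were Hhex (77.6 in wild-type against 101 in null MEFs), Pax9 (37.1 and 108), En1 (109 and 64.3) and Pitx1 (50.5 and 113). Just outside it were Nkx2-5 (97.2 and 51.6) and Msx2 (13.9 and 94.2).

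**Figure D1:**
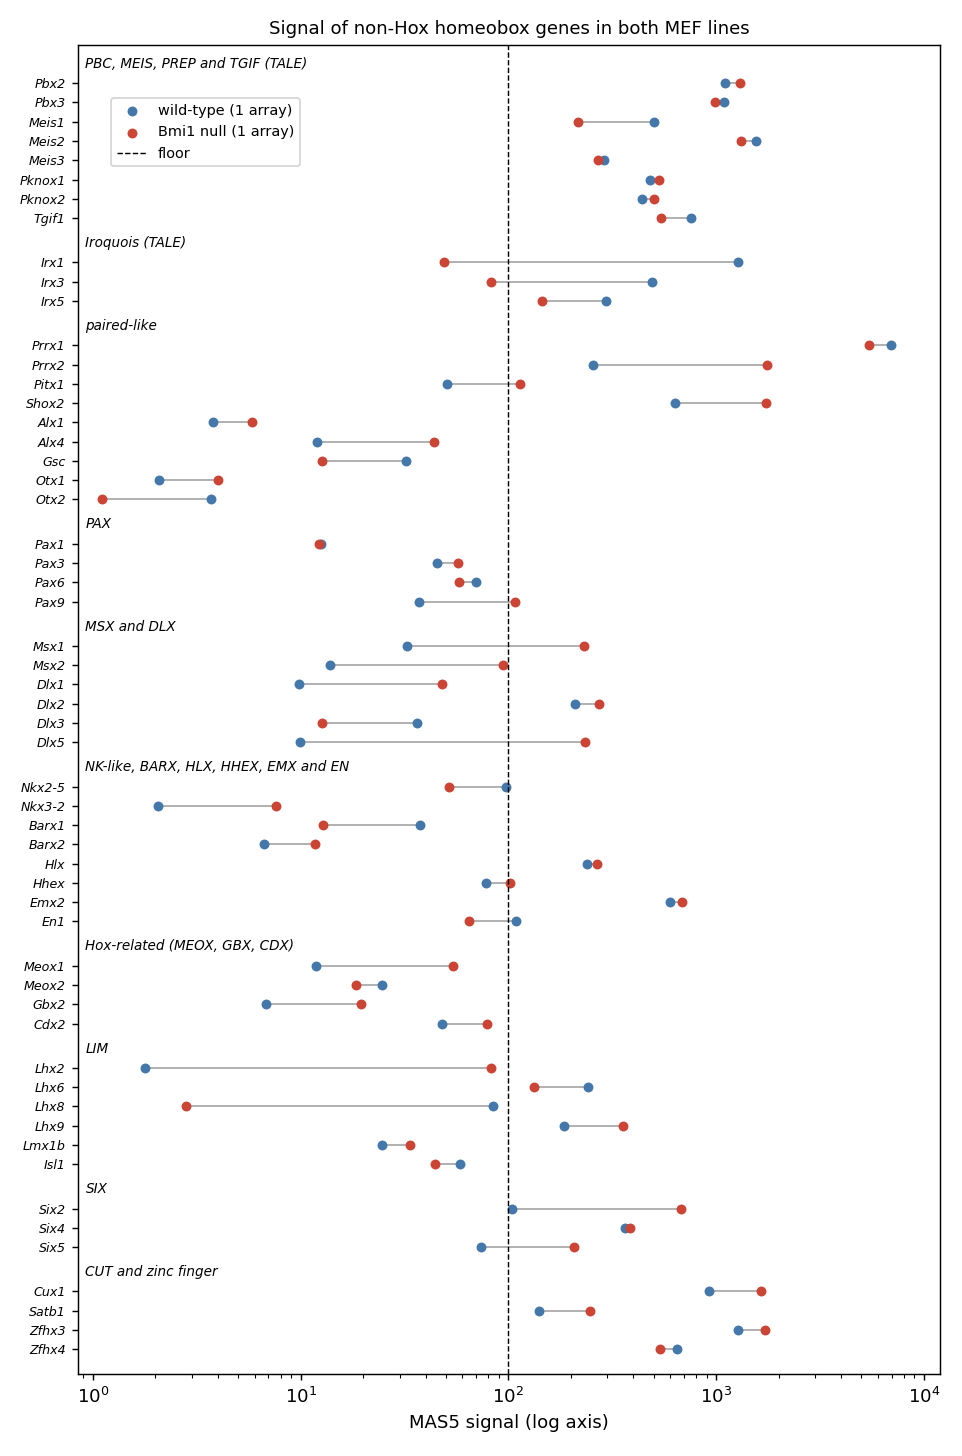
MAS5 signal (x axis, log scale) of all 55 non-Hox homeobox genes, grouped by subfamily, in wild-type (blue) and Bmi1 null (red) MEFs, 1 array each. The dashed line is the floor of 100. The 3 Iroquois genes lie to the left in null cells, while Prrx2, Shox2, Six2, Msx1 and Dlx5 lie to the right, and 23 genes lie below the floor in both lines.

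Whether homeobox genes differed in expression without Bmi1 was addressed by their ratios of null over wild-type signal. In null cells 6 of the 32 genes (18.8%) were at least 2-fold higher, namely Prrx2, Six2, Shox2, Dlx5, Msx1 and Six5. At least 2-fold lower were 4 (12.5%), namely Irx1, Irx3, Meis1 and Irx5. Over all 11766 measured genes these shares were 5.73% and 5.16%. Among the 23 genes above the floor on both arrays, 3 (13%) were higher and 2 (8.70%) lower, against 4.67% and 4.19% of 10444 such genes. The other 22 of the 32 did not reach 2-fold with the floor applied. Among them Hhex, En1, Pax9 and Pitx1 have only a bound, so they may differ by more. Without a floor, the log2 ratios of Pax9 and Pitx1 were 1.54 and 1.17. The median log2 ratio of the 32 was 0.16, against 0.006 for all measured genes, and for the 23 it was 0.16 against -0.0075. Higher and lower genes fell into different subfamilies, as described below. In a mixed culture, fewer cells that express a gene and less RNA per cell cannot be told apart.

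The size of a ratio was read against the spread between probe sets of a single gene, which covers probe error only and not the difference between cultures. Over 4591 pairs of probe sets that exceeded the floor in both lines, the SD of a log2 ratio was 0.29. It was 0.34 where the dimmer probe set read 100 to 500 (2162 pairs), 0.26 at 500 to 2000 (1709 pairs) and 0.18 at 2000 or more (720 pairs). Log2 ratios nearer to 0 than these values cannot be separated from probe error. The bounds of Hhex, En1, Pax9 and Pitx1 are nearer to 0 than 0.34, but the floor sets them. They cannot be read against this SD, which comes from probe sets above the floor in both lines.

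The Iroquois genes were lower in null cells throughout. Irx1 read 1276 in wild-type against 49.2 in null MEFs, at least 12.8-fold lower (log2 ratio at most -3.67), and 20 of the 11766 measured genes had a ratio at least as low. Irx3 read 490 and 82.3, at least 4.90-fold lower (log2 ratio at most -2.29). Irx5 read 295 and 145, 2.04-fold lower (log2 ratio -1.03), and was above the floor on both arrays. The median of the 3 log2 ratios was at most -2.29, the bound of Irx3. It follows the floor, being -1.29 with a floor of 0.4 times the trimmed mean, and Irx5, the gene above the floor on both arrays, stood at -1.03. Each of these genes had a single probe set, so no other probe set could be compared.

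The Iroquois genes lie in clusters, and the other genes of the clusters were examined on the same arrays. In the RefSeq gene order Irx1, Irx2 and Irx4 follow each other as neighbouring protein-coding genes on one chromosome, and Irx3, Irx5 and Irx6 do so on another. Irx2, which is not among the 55, read 1245 and 108, 11.6-fold lower (log2 ratio -3.53). Irx4 (2.98 and 3.89) and Irx6 (17.8 and 68.8) were below the floor on both arrays. Of the 6 Iroquois genes, 4 were therefore measured, and all 4 of these were at least 2-fold lower in null cells, from both clusters. Over all measured genes the share lower was 5.16%. Irx1 and Irx3 were measured through the wild-type array alone. Irx5 had a log2 ratio of -0.56 when the floor was raised to 0.4 times the trimmed mean and of -0.69 with a pseudocount of 100, short of 2-fold.

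The Hox cofactors of the TALE class differed little, with Meis1 as the exception. Of 8 PBX, MEIS, PREP and TGIF genes, all were above the floor on both arrays. In null cells 1 was at least 2-fold lower and 0 were higher, against 4.19% and 4.67% of all such genes. The median log2 ratio was -0.12. This median turned to 0.17 when probe sets with a suffix (those that can match several transcripts) were left out. Meis1 read 504 in wild-type against 217 in null MEFs, 2.33-fold lower (log2 ratio -1.22). Another Meis1 probe set read 113 and 106 (log2 ratio -0.086), so its probe sets differed by 1.13 on the log2 scale, and the fold rests on the brighter one. The related Meis2 read 1558 and 1316 (log2 ratio -0.24, and -0.34 to -0.05 over 3 probe sets) and Meis3 read 290 and 269 (log2 ratio -0.11).

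The PBX proteins, obligate partners of many Hox proteins, read nearly alike in both lines. Pbx2 read 1109 and 1305 (log2 ratio 0.24) and Pbx3 read 1087 and 985 (log2 ratio -0.14). Pknox1 read 479 and 532 (log2 ratio 0.15), but its other probe sets had log2 ratios of -0.62 and -0.72, and no direction is given for it. Pknox2 read 440 and 505 (log2 ratio 0.20). Tgif1, a repressor that restrains TGF-beta and retinoic acid signalling, read 756 and 545, 1.39-fold lower (log2 ratio -0.47) at its single probe set. At the probe sets that stand for the genes, Tgif1 alone of these 5 was farther from 0 than the SD between probe sets at its signal.

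Of 9 paired-like genes, 4 were measured, 3 of them (Prrx1, Prrx2 and Shox2, factors of limb mesenchyme) in both lines. With higher signal without Bmi1, 2 of the 4 passed 2-fold, against 5.73% of all measured genes. Prrx2 read 255 in wild-type against 1761 in null MEFs, 6.90-fold higher (log2 ratio 2.79), and 96 of the 11766 measured genes had a ratio at least as high. This rests on a single probe set, which has a suffix, so Prrx2 had no value without suffixed probe sets. Shox2, a factor of proximal limb bones and of the sinoatrial node, read 632 and 1741, 2.75-fold higher (log2 ratio 1.46). Another Shox2 probe set, below the floor in wild-type cells (85.6 and 219), was at least 2.19-fold higher. Pitx1, which specifies the hindlimb, read 50.5 and 113, at least 1.13-fold higher.

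The close paralogue of Prrx2 went the other way. Prrx1 read 6939 in wild-type against 5461 in null MEFs, 1.27-fold lower (log2 ratio -0.35). All 5 of its measured probe sets had log2 ratios below 0, from -0.79 to -0.35. The Prrx paralogues, which overlap in function in limb and skull mesenchyme, thus had opposite signs on these arrays. Alx1, Alx4, Gsc, Otx1 and Otx2, known mostly from the head, were below the floor on both arrays.

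Of the sine oculis genes Six2, Six4 and Six5, all 3 were measured. With higher signal without Bmi1, 2 passed 2-fold, against 5.73% of all measured genes. Six2, which maintains kidney and craniofacial precursors, read 104 in wild-type against 677 in null MEFs, 6.53-fold higher (log2 ratio 2.71), and 107 measured genes had a ratio at least as high. Its wild-type signal is close to the floor. Six5 read 74.2 and 207, at least 2.07-fold higher. Six4 read 365 and 385 (log2 ratio 0.08), with log2 ratios of 0.47 and -0.38 at its other measured probe sets. Six3, the chromosomal neighbour of Six2 and not among the 55, read 101 and 183, 1.81-fold higher (log2 ratio 0.86).

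Of the MSX and DLX genes, which mark mesenchymal progenitors and branchial arches, those among the 55 were below the floor in the wild-type line except for Dlx2. Of the 6 genes among the 55, 3 were measured. Through their bound in null cells 2 of these passed 2-fold, against 5.73% of all measured genes. Msx1 read 32.4 and 232, at least 2.32-fold higher, while a second probe set read 16.2 and 67.0, below the floor on both. Dlx5, a regulator of bone and jaw development, read 9.92 and 234, at least 2.34-fold higher. The ratios of Msx1 and Dlx5 each rest on a probe set with a suffix. Dlx6, the neighbour of Dlx5 and not among the 55, was below the floor (4.70 and 11.5). Dlx4, the neighbour of Dlx3 and not among the 55 either, went the other way. It read 117 in wild-type against 79.5 in null MEFs, at least 1.17-fold lower. Dlx2 read 208 and 272 (log2 ratio 0.39) and its neighbour Dlx1 was below the floor (9.83 and 47.7). The only ratio in this subfamily above the floor on both arrays was therefore that of Dlx2, 1.31-fold higher.

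**Figure D2:**
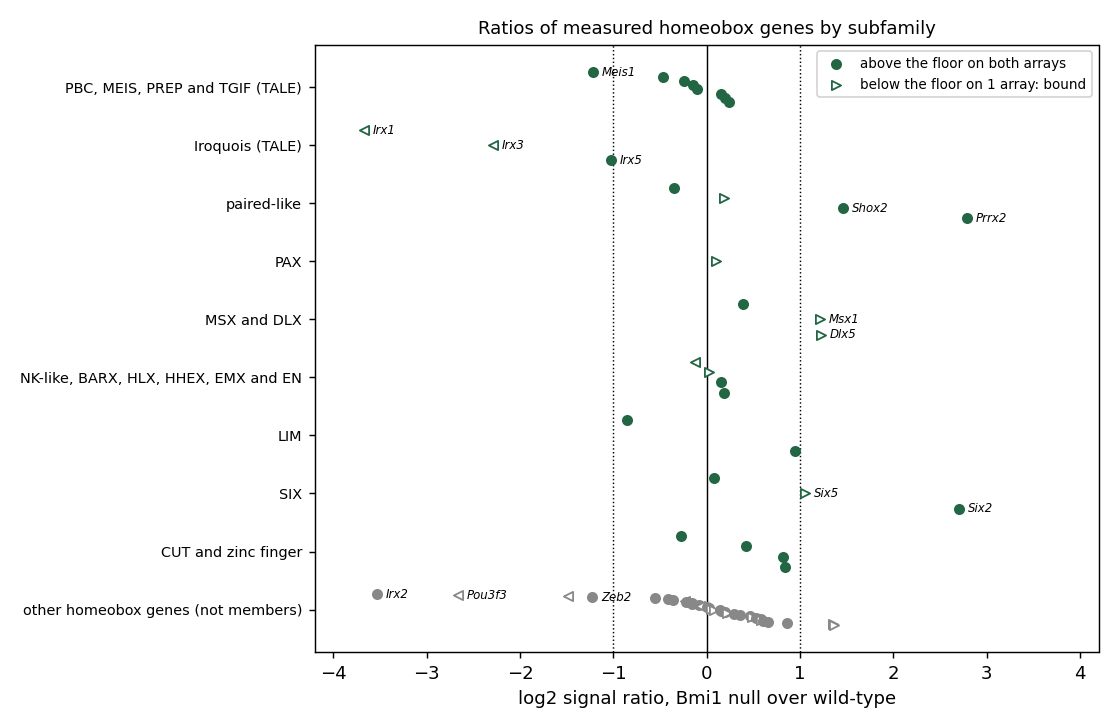
Log2 ratio of null over wild-type signal (x axis) for each measured gene by subfamily, with non-member homeobox genes in grey. Filled circles are genes above the floor on both arrays, open triangles are bounds for genes below it on 1 array, dotted lines mark 2-fold, and labels name genes past it (for the grey genes, those with a signal of at least 500). The Iroquois genes lie at -3.67, -2.29 and -1.03, Irx2 at -3.53, and Prrx2 and Six2 at 2.79 and 2.71.

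The remaining subfamilies held no gene past 2-fold with the floor applied. In the LIM class, 2 of 6 were measured. Lhx6 read 241 in wild-type against 134 in null MEFs, 1.81-fold lower (log2 ratio -0.85). Lhx9, a factor of gonad and limb, read 185 and 355, 1.92-fold higher (log2 ratio 0.94), but another probe set read 191 and 183 (log2 ratio -0.06). The probe sets of Lhx9 thus disagreed in sign.

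The NK-like and related group had 4 of 8 genes measured, none past 2-fold. Emx2, known from cortex and urogenital tract, read 603 and 688 (log2 ratio 0.19), and Hlx, a factor of gut mesenchyme, read 240 and 268 (log2 ratio 0.16). En1 was at least 1.09-fold lower and Hhex at least 1.01-fold higher, both against the floor. Of the PAX genes, 1 of 4 was measured, Pax9, at least 1.08-fold higher. None of the 4 Hox-related genes Meox1, Meox2, Gbx2 and Cdx2 was measured.

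Cut and zinc finger homeobox genes, which are large and broadly expressed regulators, were all above the floor on both arrays. Cux1, a CCAAT-binding repressor, read 923 in wild-type against 1654 in null MEFs, 1.79-fold higher (log2 ratio 0.84). Its 5 measured probe sets were all higher in null cells, from 0.29 to 2.02 on the log2 scale, the latter at a probe set reading 278 and 1126. Satb1, an organizer of chromatin, read 140 and 248, 1.77-fold higher (log2 ratio 0.82), and a second probe set gave a bound of 0.43. Zfhx3 read 1282 and 1714 (log2 ratio 0.42), and its 6 measured probe sets ranged from 0.16 to 0.44. Zfhx4 read 650 and 536 (log2 ratio -0.28, and -0.42 at another probe set). The median log2 ratio of these 4 genes was 0.62.

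How far single genes can be trusted was examined through their other probe sets. Of the 32 measured genes, 13 had several measured probe sets. All had the same sign in 10 of these, and Lhx9, Pknox1 and Six4 had both signs. The ratios of a gene lay within 1 on the log2 scale in 10 of the 13, the exceptions being Cux1, Meis1 and Lhx9. Of the 10 genes past 2-fold, Shox2 and Meis1 had a second measured probe set. It was past 2-fold in the same direction for Shox2 and not for Meis1.

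**Figure D3:**
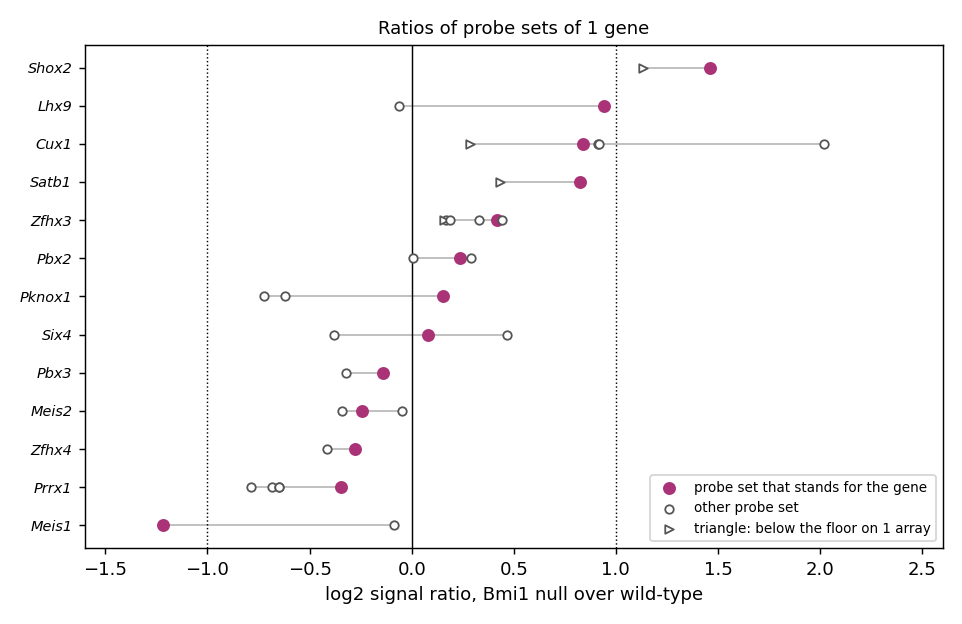
Log2 ratio of null over wild-type signal (x axis) at each measured probe set of the 13 genes with several. Filled circles are the probe sets that stand for the gene, open symbols the others, triangles are bounds and dotted lines mark 2-fold. Shox2 lies past 2-fold at both probe sets, the Meis1 probe sets lie at -1.22 and -0.09, and those of Cux1 span 0.29 to 2.02.

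A further 121 homeobox genes outside the Hox clusters, not among the 55, gave a wider view of the family. Of these, 99 were matched by symbol and 33 measured, 22 of them on both arrays. In null cells 2 of the 33 were at least 2-fold higher and 4 lower, where all measured genes had 5.73% and 5.16%, and the median log2 ratio was 0.08. Among the 22 the counts were 0 and 2, against 4.67% and 4.19%. Beside Irx2, Pou3f3, a POU factor of brain and kidney, read 635 and 30.3, at least 6.35-fold lower. Its other probe set was below the floor (2.09 and 4.86). Zeb2, a homeodomain zinc finger repressor of epithelial genes, read 1162 and 497, 2.34-fold lower (log2 ratio -1.23). Its other measured probe sets had log2 ratios of -1.38, -1.38 and -0.64, the last a bound. The higher genes, Tshz3 (43.7 and 259) and Pou3f4 (28.7 and 256), did not reach the floor in the wild-type line. They and Hmx1 (280 and 4.03), the remaining lower gene, are named after their values were seen.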

How the data were processed

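Total RNA of 1 wild-type and 1 Bmi1 null MEF line was converted to biotinylated cRNA and hybridized to Affymetrix whole-genome mouse arrays. The deposited intensities are linear MAS5 signals, 1 for each of 45101 probe sets. The authors brought both arrays to a common level: after trimming 2% at each end, the mean of each was 500.003. Detection calls and the scaling target are not given in the sources used here. A scaling of this kind would hide a change shared by most transcripts.

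Probe sets were assigned to genes through the platform annotation. A single symbol was found for 34958, several for 932 and none here for 9211. Signals below 100 were set to 100 before log2 ratios of null over wild-type were taken, and counts use a threshold of 2-fold. Python 3.11.15, pandas 2.3.3 and NumPy 2.4.6 were used, and the steps were tested on simulated data. Promoter windows were read from RefSeq, GRCm38.p6, and their strand was checked on 1485 overlapping pairs.

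The 55 members, the subfamilies and the lists were chosen with earlier results of these data known. All members were described. Of the list genes, those past 2-fold that reached 500 on either array were named, up to 8 homeobox genes and 4 cofactors by size of ratio. Alternatives were no floor, floors at 0.1 and 0.4 times the trimmed mean, a pseudocount of 100, the mean of measured probe sets, probe sets without suffix, centred ratios and quantile normalization. A restriction to genes above the floor on both arrays was chosen after seeing the data. No replicate could be left out, because there was 1 array per group.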

Additional observations from a re-analysis of the deposited data

How the results depend on the processing

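The limits are those of 1 array per genotype and of signals near the floor, where a ratio follows the floor chosen. All 10 genes past 2-fold kept their sign under every alternative that gave them a value. This was largely fixed in advance, because another floor or a pseudocount cannot reverse the order of the 2 signals. For a gene with a single probe set, the mean of probe sets also returns the same value. Irx1, Irx3, Prrx2, Shox2 and Six2 also stayed past 2-fold in all alternatives that gave them a value. Meis1 did so in 6 of 9, down to a log2 ratio of -0.09, Irx5 in 7 of 9 (to -0.56), Msx1 and Dlx5 in 6 of 7 each (to 0.21 and 0.23) and Six5 in 6 of 8 (to 0.05). Settings without a value are left out of these counts. Msx1, Dlx5 and Prrx2 had none without suffixed probe sets. Irx1, Irx3, Msx1, Dlx5 and Six5 had none in the restriction to genes above the floor on both arrays. Centring the ratios changed no count of members, other homeobox genes or cofactors and added 0.02 to each median. No paired analysis was possible because there was 1 array per group.

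Without a floor, all 55 genes had a ratio, 15 were higher and 9 lower (12.9% and 8.68% of all genes at this setting), and the median was 0.24. The medians were then -2.57 for Iroquois, 2.52 for MSX and DLX and 1.48 for sine oculis genes. Of the other homeobox genes, 18 were higher and 11 lower (median 0.14), and of the cofactors 3 were lower (median -0.13). When the floor was lowered to 0.1 times the trimmed mean, the medians were -2.57 for Iroquois and 1.31 for paired-like genes. They were 1.56 for MSX and DLX and 1.48 for sine oculis genes. At this floor 4 other homeobox genes were higher (median 0.15) and 2 cofactors lower, against 6.43% and 5.27% of all genes. When it was raised to 0.4 times, 3 members were higher (5.34% of all genes), and the medians were -1.29 for Iroquois, 1.46 for paired-like, 0.23 for MSX and DLX, 0.079 for sine oculis and 0.36 for cut and zinc finger genes. No other homeobox gene was then higher (0), and their median was -0.11. With a pseudocount of 100 in place of the floor, all 55 had a ratio, 2 were lower (2.58% of all genes) and the median was 0.098. The medians were -1.70 for Iroquois, 0.028 for paired-like, 0.60 for MSX and DLX, 0.82 for sine oculis, 0.46 for cut and zinc finger and 0.024 for other homeobox genes, and 0 cofactors were lower.

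Without suffixed probe sets, 3 members were higher (5.69% of all genes), and the medians were 0.17 for PBX, MEIS, PREP and TGIF genes, 0.18 for paired-like and 0.39 for MSX and DLX genes. With the mean of measured probe sets, the median was 0.46 for cut and zinc finger genes and 0.058 for cofactors. In this setting 1 other homeobox gene was higher and 0 cofactors lower, against 5.15% and 4.81% of all genes. Under quantile normalization 0 cofactors were lower (5.04% of all genes). Above the floor on both arrays, 3 members were higher and 2 lower (4.67% and 4.19% of all such genes). The medians were -1.03 for Iroquois (Irx5 alone), 1.46 for paired-like, 0.39 for MSX and DLX (Dlx2 alone) and 1.39 for sine oculis genes. Of the other homeobox genes 0 were then higher and 2 lower, and of the cofactors 0 were higher at the probe sets that stand for them. Which of these settings is nearer to the transcript levels was not tested.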

Other observations

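Proteins that bind homeodomain factors were examined as a group of 23 genes. Of these, 20 were measured, 2 passed 2-fold with higher signal without Bmi1 and 1 with lower (5.73% and 5.16% of all measured genes), and the median log2 ratio was -0.06. At the probe sets that stand for the genes, both higher genes were measured through the null array alone. Of the 16 cofactors above the floor on both arrays there, 0 were higher. Ldb2, described below, was above the floor on both arrays at another probe set (log2 ratio 1.57). The EYA proteins, phosphatases that act as coactivators of sine oculis factors, differed among themselves. Eya4 read 85.8 in wild-type against 1759 in null MEFs, at least 17.6-fold higher, and a second measured probe set read 34.7 and 474. Eya1 read 1087 and 535, 2.03-fold lower (log2 ratio -1.02). Its second measured probe set gave a bound of -0.44. Eya3 read 975 and 569, 1.71-fold lower, and Eya2 was below the floor on both arrays.

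Ldb2, which bridges LIM-homeodomain proteins, read 93.9 in wild-type against 859 in null MEFs, at least 8.59-fold higher. Its other probe sets read 160 and 476, and 16.3 and 342. The related Ldb1 read 845 and 825 (log2 ratio -0.04). The Groucho corepressors of the TLE family had log2 ratios from -0.18 (Tle1) to 0.92 (Tle2), none past 2-fold. Eya3, Ldb1 and the Tle genes are named after their values were seen.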
